A study of Atriplex prostrata and Atriplex rosea and Atriplex prostrata x Atriplex rosea with 87 samples.

Results

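Transcript counts of cytochrome P450 loci were followed through leaf development in Atriplex prostrata, a C3 species, and Atriplex rosea, a C4 species. The set held every locus of the deposited count table whose description contains the words cytochrome P450, without family 78 and without AT2G42250. This left 137 of the 21976 loci in the table. They carried 37 P450 family numbers, 20 had no family number in their description, and 4 were described as pseudogenes. The reads of both Atriplex species had been counted at Arabidopsis thaliana loci, so each value stands for Atriplex transcripts that match that Arabidopsis locus, and reads of 1 Atriplex gene can spread over several close Arabidopsis relatives.

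Cytochrome P450s are heme enzymes that insert an oxygen atom into a substrate, with electrons that reach them from a P450 reductase or cytochrome b5. In plants they work in the synthesis of lignin, flavonoids, cutin, wax, sterols and carotenoids, in the making and the inactivation of most hormones, and in defence metabolism. Families are numbered by protein sequence, so that members of a family are related, but they need not share a substrate.

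Plants were kept under a 17 h day, at 27 °C in the light and 22 °C in the dark, and were sampled 2 h into the day. The species were matched at 8 stages by leaf plastochron index, an age computed from leaf lengths. Whole leaves were taken at 1 mm, at 5 mm and, as leaf 9 and as leaf 10, at 7.5 mm, followed by the bottom and top parts of leaves at index 0.3 (15 mm in prostrata, 11 mm in rosea) and at index 0.8 (18 mm and 13 mm). Each of the 16 groups had 3 libraries, biological triplicates per the series' design, and neither species carried a transgene or a treatment. The F1 hybrid of the species, with 27 samples in the labels, was not analysed here.

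Library totals ran from 7647689 to 15360702 counts, and the P450 loci took 0.175% to 0.316% of them. Levels are given in CPM, the count scaled to a TMM-adjusted library total, and were compared between libraries of the same locus only, because transcript length was not used. In a chi-square comparison of counts, where 1 per degree of freedom is sampling noise, pairs of libraries within a group had a median of 15.3. The closest of all 1128 pairs, at 1.15 (prostrata 15 mm bottom replicate 1 and 15 mm top replicate 1), joined libraries of different leaf parts, so comparisons of tip and base are given with and without them. Their counts differ by little more than sampling noise, and whether both come from 1 library was not tested. Within a group the closest, at 1.2, were replicates 1 and 2 of the 1 mm leaves in prostrata. The other pairs of that group, at 1.94 and 2.19, were also far under the median. In prostrata, libraries of leaf 9 and leaf 10 numbered 3 were at 1.80 and those numbered 2 at 2.19. The closest pair within leaf 9 was at 3.53. Why these libraries are close was not tested. Leaf 9 and leaf 10 were counted as separate stages, and leaf 9 was left out in an alternative fit. Of the 137 loci, 103 passed the filter on low counts and were tested, and 12 had no count in any library. Among markers of other tissues, the root list (3 of 4 loci in the table) summed to 0.342 to 4.41 CPM, with RHD6 at 0 in all groups but 5 mm leaves of rosea. Of the 2 root markers tested, 1 was called higher in rosea (WOX5) and 1 lower (PYK10). The summed level of the shoot meristem list (3 loci in the table) was 36.8 to 53.4 CPM in 1 mm leaves and 0 to 13.4 CPM in all older groups. In whole-leaf RNA, fewer cells of a type and less RNA per cell cannot be told apart.

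On the TMM scale, the summed level of all P450 loci was higher in old than in young leaves of both species. It was also higher in rosea than in prostrata at either end of the series. Changes with age come out more positive on this scale than with library totals. Of the unscaled counts, the P450 loci took 0.175% to 0.316% over all libraries of both species. That is a narrower relative range than that of the summed levels on the TMM scale. How far this share rises with age within a species is not given here. In prostrata their summed level was 1350 ± 16.4 CPM in 1 mm leaves and 2593 ± 178 CPM in the tips at index 0.8 (mean ± SD, n = 3 each). In rosea it was 1868 ± 70.7 CPM and 3871 ± 168 CPM. A few loci held much of this sum, shares of counts that also depend on transcript length. In rosea CYP716A1, whose family oxidises triterpenes, took 26.1% of all P450 counts and CYP72A7 took 11.4%, while in prostrata the leading loci were CYP716A1 with 9.72% and TT7, the flavonoid 3'-hydroxylase, with 9.65%.

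The average over the 8 stages was first compared between rosea, the C4 species, and prostrata. A locus was called where edgeR's quasi-likelihood test, adjusted by Benjamini-Hochberg over all 14779 tested loci, gave p under 0.05 and the log2 fold change was 1 or more in size. Of the 103 tested P450 loci, 28 were called higher in rosea and 23 lower, together 51 or 49.5%. Of all tested loci 19.9% were called, 9.61% higher and 10.3% lower. The median absolute log2 difference was 0.96 for the P450 loci and 0.44 for all loci. In 25 of the 103, or 24.3%, no library of one species reached into the range of the other, which held for 8.89% of all tested loci.

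CYP716A1 took the largest share of the P450 counts in both species. It ran from a lowest library of 318 CPM over a median of 641 to 1402 CPM in rosea, and from 122 over 178 to 310.2 CPM in prostrata. Every rosea library lay above every prostrata library. The log2 fold change was 1.80 ± 0.08 (SE, adjusted p = 1.97e-22). For CYP72A7 the 24 rosea libraries ran from 134 to 518 CPM with a median of 311 CPM. Its 24 prostrata libraries ran from 54.7 to 120.0 CPM with a median of 74.2 CPM, again without overlap (1.89 ± 0.06, adjusted p = 1.07e-27). The profiles of these loci across libraries were close, with a Spearman correlation of 0.99 in the 24 rosea libraries and 0.889 in the 24 prostrata libraries, points that share library and stage. CYP76C6 stood the other way, at 26.8 to 44.4 CPM in rosea and 64.1 to 111 CPM in prostrata (-1.30 ± 0.06, adjusted p = 4.62e-22).

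**Figure D1:**
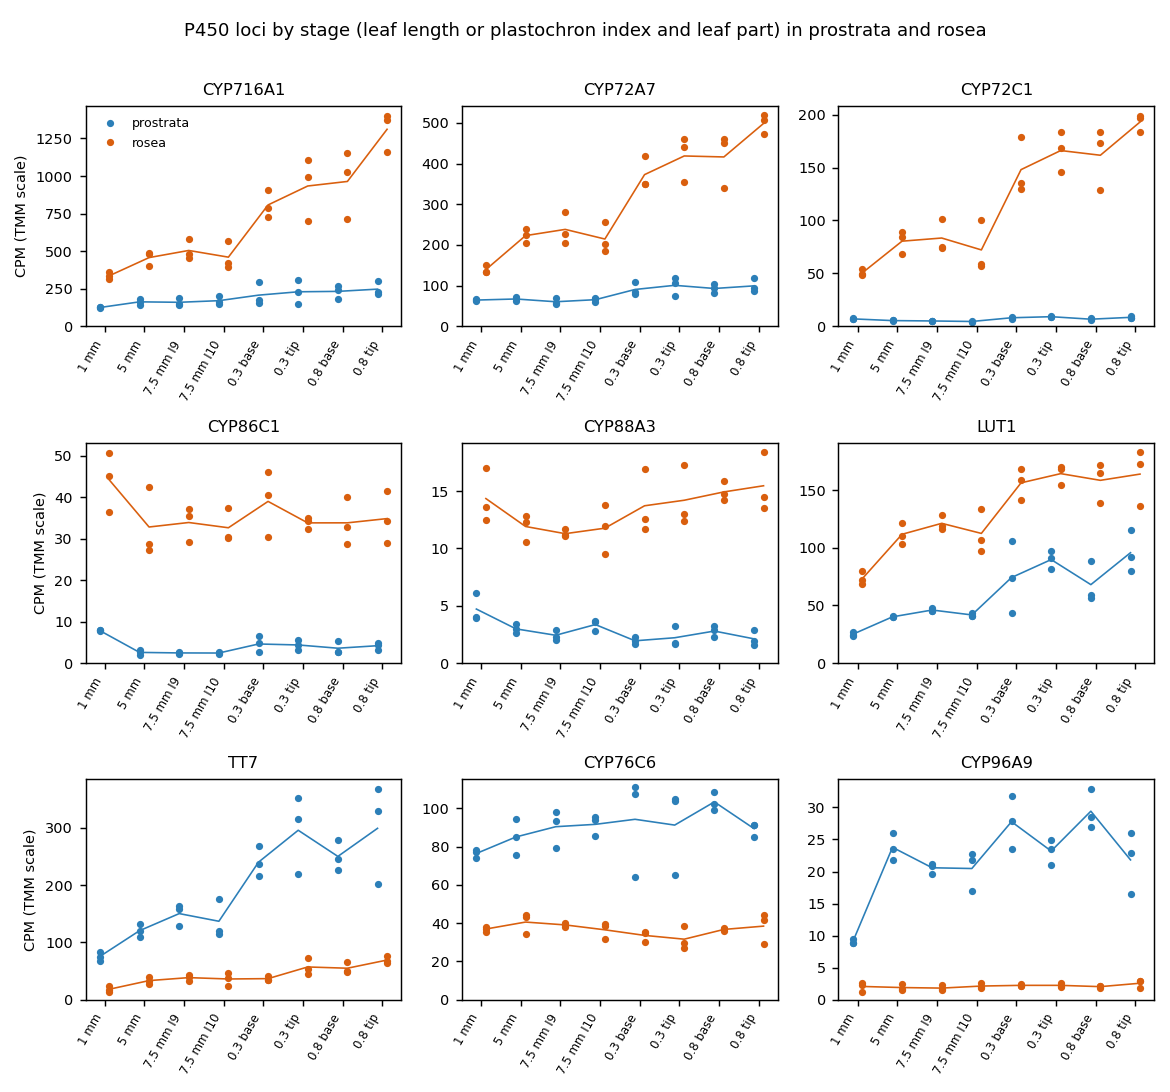
Levels of 9 P450 loci in CPM (y axes start at 0) at the 8 matched stages, named by leaf length or by leaf plastochron index with base (bottom part) or tip (top part). Points are libraries, 3 per group, and lines join group means; CYP716A1 reached 1402 CPM in a rosea library and at most 310.2 CPM in prostrata, while TT7 and CYP96A9 stood higher in prostrata.

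Phenylpropanoid P450s differed in opposite ways. TT7 makes the second hydroxyl group of the flavonoid B ring. Its 24 libraries ran from 68.2 over a median of 189 to 367 CPM in prostrata and from 14.1 over 41.0 to 75.7 CPM in rosea, and it was lower in rosea at each of the 8 stages (-2.15 ± 0.08, adjusted p = 1.31e-24). The highest rosea library lay within the range of the 3 libraries of 1 mm prostrata leaves. CYP98A3, the 3'-hydroxylase of the coumaroyl esters on the way to lignin, was not called over the stages (0.64 ± 0.05, adjusted p = 1.24e-14, under the fold limit). It was called higher in rosea at 4 stages, the youngest among them. At 1 mm it stood at 133, 143 and 161 CPM in rosea and at 53.9, 57.3 and 59.1 CPM in prostrata (1.36 ± 0.14). In the tips at index 0.8 the difference was -0.02 ± 0.14. Other P450s of the pathway are described in the table by enzyme name and lie outside the set. Among them CYP84A1, the 5-hydroxylase that leads to syringyl lignin, was higher in rosea (2.54 ± 0.07), and CYP73A5, the cinnamate 4-hydroxylase, was not called (0.16 ± 0.06). Of the 10 tested partner loci of the pathway, HCT was called higher (1.81 ± 0.16) and 0 lower. The summed level of the 6 xylem markers was 722 to 758 CPM in the rosea tips at index 0.8 and 521 to 588 CPM in those of prostrata, and its part in these values was not tested.

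Of the 8 tested loci listed for cutin, suberin, wax and pollen wall, 3 were higher in rosea and 1 lower. CYP86C1, of a family that hydroxylates the end of fatty acid chains, ran from 27.3 over a median of 34.6 to 50.8 CPM in rosea and from 1.99 over 3.10 to 7.93 CPM in prostrata (3.25 ± 0.09, adjusted p = 1.17e-29). No libraries overlapped. CYP86C3 was counted 1249 times in all rosea libraries and 53 times in all prostrata libraries, a ratio of 20.8 at equal library totals (exact 95% interval 15.8 to 28, counting error only). CYP704B1, which acts in pollen wall synthesis in Arabidopsis, was also higher (1.80 ± 0.11). CYP96A15, the alkane hydroxylase of stem wax in Arabidopsis, was lower (-1.09 ± 0.13).

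The cutin hydroxylases of subfamily 86A were not called. CYP86A4 ran from 52.1 over 71.1 to 120 CPM in prostrata and from 52.6 over 78.1 to 107 CPM in rosea, overlapping ranges with a difference of 0.06 ± 0.07. For CYP86A7, CYP86A8 and the suberin enzyme CYP86A1 the differences were 0.44 ± 0.07, 0.28 ± 0.06 and -0.40 ± 0.07. None of the 8 listed loci was called with age in either species on the TMM scale. CYP86C1 was just under the fold limit in prostrata (-0.99). With library totals it changed by -1.53 in prostrata and -1.03 in rosea, and both were called. At that setting CYP86C3 in prostrata and CYP86A8 and CYP86A1 in rosea were called lower too. By the test over all stages of a species, CYP86C1 was called in prostrata (log2 span 1.69) and CYP96A15 in prostrata (1.34) and rosea (1.62). The epidermis markers (4 of 5 listed in the table) summed to 829 to 882 CPM in 1 mm leaves of rosea and to 281 to 347 CPM in its tips at index 0.8. In prostrata they summed to 641 to 659 and 504 to 642 CPM, with PDF1 at 0 in 7 of the 8 groups. Their part in the values of the cutin loci was not tested.

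Carotenoid hydroxylases rose with age in both species. CYP97A3 acts on the beta ring of carotenes and LUT1 on the epsilon ring, the steps that give lutein, and CYP97B3 belongs to the same family. The change with age was taken as the mean of the base and tip at index 0.8 minus 1 mm leaves. LUT1 stood at 23.3, 24.8 and 27.0 CPM in 1 mm prostrata leaves and at 56.8 to 116 CPM (median 84.3) in the 6 libraries at index 0.8, a rise of 1.69 ± 0.17. In rosea it went from 68.5, 71.8 and 79.6 CPM to 136 to 183 CPM (1.14 ± 0.16). In each species all 6 older libraries lay above the 3 young ones. LUT1 was also higher in rosea over the stages (1.22 ± 0.06, adjusted p = 6.72e-20), while CYP97A3 and CYP97B3 differed by -0.10 ± 0.06 and 0.00 ± 0.06. CYP97A3 rose by 1.59 ± 0.16 in prostrata and 1.54 ± 0.16 in rosea, and CYP97B3 by 1.80 ± 0.15 and 1.27 ± 0.14. For none of the 3 was the change with age called different between the species. Of 8 partner loci of the pathway, 7 rose in each species, among them PSY, phytoene synthase, by 1.76 ± 0.17 and 2.26 ± 0.18. When library totals replaced TMM scaling, the rises in rosea were 0.85 for CYP97A3, 0.58 for CYP97B3 and 0.45 for LUT1 and were not called. The photosynthesis markers (2 of 6 listed in the table) summed to 2632 to 2928 CPM at 1 mm and 57570 to 93600 CPM in the tips at index 0.8 of prostrata, and to 3078 to 4088 and 17120 to 27250 CPM in rosea, and their part in these rises was not tested.

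Sterol P450s split by step. CYP51G1, the sterol 14-demethylase of the main pathway, stayed between 79.3 and 104 CPM in all prostrata libraries and between 83.9 and 115 CPM in all rosea libraries (0.16 ± 0.03, not called). The C22 desaturases CYP710A2 and CYP710A3, which make stigmasterol-type sterols, were both higher in rosea. CYP710A2 ran from 8.0 over 13.7 to 18.6 CPM in rosea and from 2.01 over 3.77 to 6.46 CPM in prostrata, without overlap (1.80 ± 0.06, adjusted p = 3.70e-26). CYP710A3 differed by 2.06 ± 0.10. Among 8 sterol partner loci, STE1 (-1.67 ± 0.12) and DWF5 (-1.24 ± 0.04), which act late in the main pathway, were called lower and 0 higher.

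Brassinosteroid P450s include those that make the hormone and those that inactivate it. The largest difference was in CYP72C1, an inactivating enzyme. It ran from 48.4 over 115 to 198 CPM in rosea and from 4.24 over 6.79 to 10.2 CPM in prostrata, a difference of 4.01 ± 0.07 (adjusted p = 7.44e-36), and every rosea library lay above every prostrata library. It rose with age in rosea, from 48.4, 49.0 and 54.4 CPM to 129 to 198 CPM (1.80 ± 0.15), and changed by 0.11 ± 0.17 in prostrata; the age changes themselves differed by 1.69 ± 0.22 (adjusted p = 3.11e-07). BAS1, another inactivating enzyme, was not called between the species over the stages (0.84 ± 0.07, adjusted p = 3.86e-13, under the fold limit). It was called higher in rosea at 2 of the 8 stages. With age it changed by -0.82 in prostrata and -0.97 in rosea, also under the fold limit. With library totals these changes were -1.37 and -1.65 and were called. The difference of its age changes was not called.

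Among the synthesis enzymes, CPD rose in both species, by 1.94 ± 0.23 in prostrata and 2.38 ± 0.24 in rosea. CYP90D1, a C23 hydroxylase, rose by 2.78 ± 0.51 and 2.95 ± 0.44 and was higher in rosea over the stages (1.51 ± 0.20). DWF4, which catalyses the C22 hydroxylation, was not called between the species over the stages or with age. By the test over all stages of a species it was called in rosea (span 1.03 on the log2 scale) and not in prostrata (0.93). ROT3, the other C23 hydroxylase, moved apart between the species. In prostrata it fell from 7.99, 9.72 and 11.1 CPM at 1 mm to 2.05 to 5.72 CPM at index 0.8 (-1.41 ± 0.18), without overlap. In rosea it stood at 6.68, 8.98 and 9.27 CPM and later at 7.89 to 15.7 CPM (0.36 ± 0.17, not called). The difference of the age changes was 1.78 ± 0.26 (adjusted p = 2.00e-06). Of 5 brassinosteroid partner loci, DET2, a steroid reductase, was lower in rosea (-2.05 ± 0.10) and 0 were higher.

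Other hormone P450s differed locus by locus. CYP88A3, which oxidises kaurenoic acid on the way to gibberellin, ran from 9.55 over 12.9 to 18.4 CPM in rosea and from 1.55 over 2.86 to 6.15 CPM in prostrata (2.29 ± 0.08, adjusted p = 4.64e-26). CYP701A3, the preceding ent-kaurene oxidase and outside the set, was lower (-1.73 ± 0.08). CYP714A2, which modifies gibberellins, fell with age in prostrata (-1.44 ± 0.21) and changed by -0.61 ± 0.20 in rosea, a difference that was not called. CYP711A1, which acts in strigolactone synthesis, was lower in rosea at each of the 8 stages (-1.28 ± 0.09, adjusted p = 8.36e-16). CYP94B3, which oxidises jasmonoyl-isoleucine, was lower too, at 1.03 to 2.45 CPM in rosea and 2.55 to 6.22 CPM in prostrata (-1.29 ± 0.10), and so was the partner LOX2 (-2.28 ± 0.15). CYP94C1, also listed for jasmonate, rose with age by 1.17 ± 0.41 in prostrata and 1.23 ± 0.44 in rosea. With library totals these rises were 0.64 and 0.52 and were not called. Single libraries also decided the calls. The rise in prostrata was not called without its 1 mm replicate 1 (1.08), nor that in rosea without its 13 mm bottom replicate 3 (0.95).

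The abscisic acid 8'-hydroxylases were not called over the stages. CYP707A4 rose with age in rosea, from 2.74, 3.79 and 3.95 CPM to 7.72 to 20.9 CPM (1.95 ± 0.30), and by 0.34 ± 0.32 in prostrata. The difference of these changes was 1.61 ± 0.43 (adjusted p = 0.0052). CYP707A2 fell in rosea (-1.10 ± 0.25), from 16.0, 26.1 and 33.4 CPM to 9.72 to 18.3 CPM, which overlap. The fall was under the fold limit without rosea 1 mm replicate 1 (-0.84) or without 13 mm top replicate 2 (-0.99). CYP707A1 was not called between the species over the stages or with age.

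The CYP96 family, which includes the wax alkane hydroxylase CYP96A15, stood lower in rosea at most of its loci. Of 9 tested members 8 were called lower over the stages and 0 higher, where 10.3% of all tested loci were called lower. The median log2 difference of the 9 was -1.98 and that of all tested loci was -0.02. CYP96A9 ran from 8.87 over 22.8 to 32.8 CPM in prostrata and from 1.24 over 2.15 to 2.97 CPM in rosea (-3.31 ± 0.07, adjusted p = 2.39e-32). CYP96A2 ran from 10.1 to 25.7 CPM and from 0.542 to 2.02 CPM (-3.57 ± 0.09). CYP96A1 differed by -2.86 ± 0.09, and for all 3 the libraries of the species did not overlap. The smallest difference was that of CYP96A5, which was not called (-0.96 ± 0.16) and was named after its values were seen. In prostrata the 5 members with a mean of at least 5 CPM had a median Spearman correlation of 0.672 over 10 pairs across the 24 libraries. The median was 0.265 over 1042 pairs of different families and 0.772 over all 39 pairs of 1 family, so this likeness is not particular to CYP96. Whether these loci share the reads of fewer Atriplex genes was not tested.

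**Figure D2:**
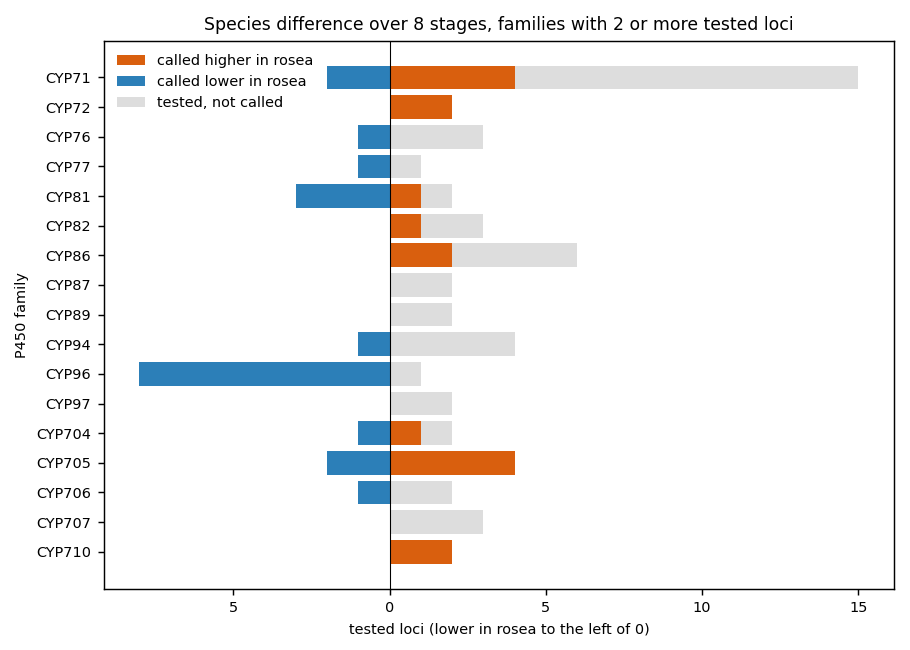
Number of tested loci per P450 family (families with at least 2) called higher in rosea (right of 0), called lower (left of 0) or tested and not called (grey, added on the right) over the 8 stages. In CYP96, 8 of 9 loci lie left of 0; in CYP71, with 17 tested loci, 4 were higher and 2 lower.

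Family 705 held members of both kinds. Of 6 tested members 4 were higher in rosea and 2 lower. CYP705A30 was counted 1210 times in rosea and 11 times in prostrata, a ratio of 97.2 at equal library totals (exact 95% interval 54.2 to 195, counting error only). CYP705A1, which cleaves arabidiol in Arabidopsis, ran from 3.58 to 7.36 CPM in rosea and from 0.0845 to 1.07 CPM in prostrata (3.69 ± 0.13). CYP705A5, of the thalianol cluster in Arabidopsis, stood the other way (-3.20 ± 0.15). The largest contrasts of all were in single loci. CYP79C2 had 1263 counts in rosea and 1 in prostrata, a ratio of 1120 (exact 95% interval 200 to 44100). CYP708A1 had 12 counts in rosea and 1541 in prostrata, 145 times as many at equal totals (82.9 to 282). CYP77A5P, described as a pseudogene in Arabidopsis, differed by -3.58 ± 0.10 and CYP71B16 by -2.77 ± 0.12. For these loci, as for every difference between the species given here, 2 readings cannot be told apart. They are a lower match of the reads of 1 species to the Arabidopsis sequence and a lower transcript level.

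Stage by stage, the number of P450 loci called higher in rosea went from 35 at 1 mm to 28 in the tips at index 0.8, and the number called lower from 18 to 27. Of all tested loci 16.4% were called at 1 mm (8.49% higher, 7.9% lower) and 25.4% in those tips (11.7% and 13.7%). In between, 31 P450 loci were higher and 22 lower at 5 mm, where 20.3% of all loci were called (10.4% and 9.82%). In leaf 9 at 7.5 mm they were 32 and 21 (21.6% of all loci, 11% and 10.6%), and in leaf 10 32 and 23 (19.7%, 9.57% and 10.1%). At index 0.3 more loci were called lower than higher, which was not so at index 0.8. The base at index 0.3 had 27 higher and 31 lower (23.5% of all loci, 10.3% and 13.2%), and its tip 23 and 32 (21.9%, 10.3% and 11.7%). Without the close pair of 15 mm libraries, these counts were 26 and 34 in the base and 19 and 30 in the tip. The base at index 0.8 had 29 and 26 (24.8%, 11.9% and 12.9%). At every one of the 8 stages, 18 P450 loci were called higher and 13 lower, which are 17.5% and 12.6% of the tested ones, where 3.68% and 3.54% of all loci were. P450 loci called at none of the stages numbered 23, or 22.3%, against 57.2% of all loci. CYP71A12, CYP71B12 and CYP81D7, named after their values were seen, were the 3 called higher at 1 stage and lower at another (2.91%, against 0.798% of all loci). Family 71 carried much of the shift in direction, with 10 members called higher and 1 lower at 1 mm, but 3 higher and 5 lower in the tips at index 0.8. Without rosea 13 mm top replicate 3, 1 was higher and 5 lower in those tips.

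**Figure D3:**
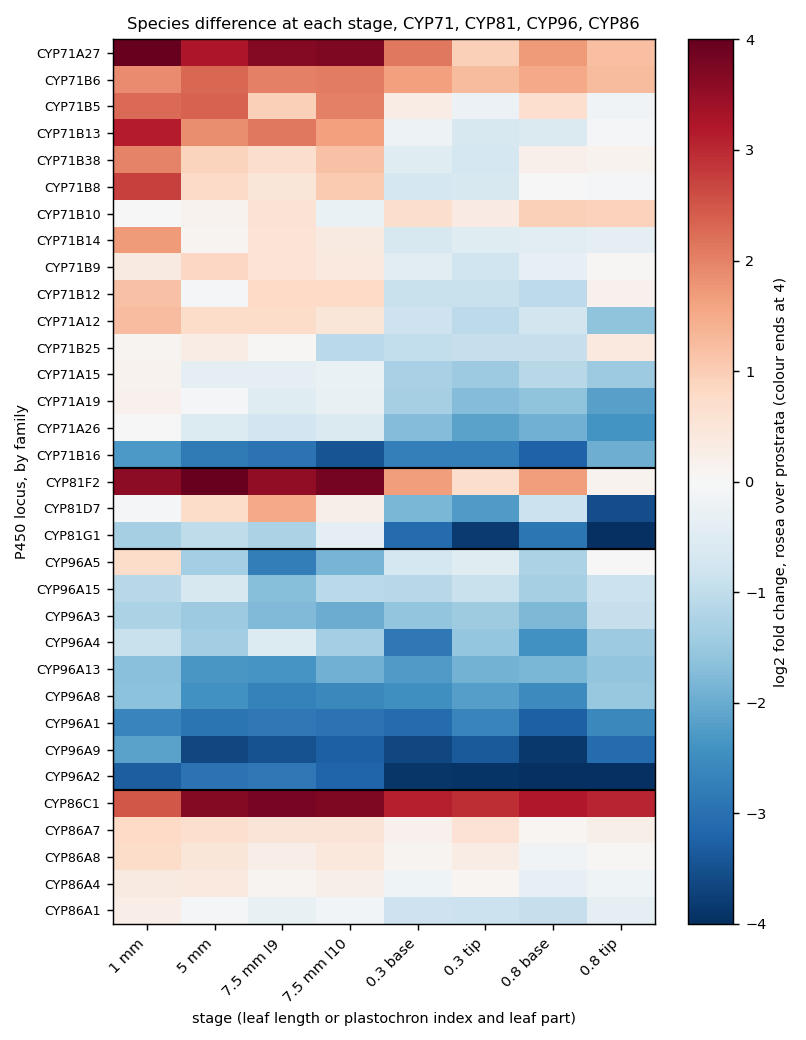
Log2 fold change of rosea over prostrata at each stage for 33 loci of families 71, 81, 96 and 86, ordered within a family by the mean over stages (red: higher in rosea, blue: lower; the colour scale ends at 4). Loci with 3 or fewer counts in a group are left out. Most CYP71 rows are redder in young leaves than at indices 0.3 and 0.8, but CYP71B16 is blue and CYP71B6 red at all stages and CYP71B10 goes the other way; CYP96 rows are blue at nearly all stages.

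Across the 8 stages of a species, 61 of the 103 tested P450 loci differed in prostrata and 53 in rosea by edgeR's test over stages with a span of at least 1 on the log2 scale, where 36.4% and 33.7% of all loci did. Of the 61 in prostrata, 26 had their highest group mean in the tips at index 0.8, 18 in the tips at index 0.3 and 7 at 1 mm. These are 42.6%, 29.5% and 11.5% of the 61, and the shares among all loci that passed the same test were 36.2%, 9.83% and 19.4%. Of the 53 in rosea, 28 were highest in the tips at index 0.8 and 12 at 1 mm, or 52.8% and 22.6%, against 40.1% and 31% of all such loci.

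With age, more P450 loci rose than fell on the TMM scale in both species, an order that turned in rosea when library totals were used. Of the 103 tested loci 33 rose and 4 fell in prostrata, where 15.2% and 8.28% of all tested loci did (23.5% in either direction). In rosea 21 rose and 12 fell, against 15% and 10.3% of all loci (25.2% in either direction). With library totals in place of TMM scaling, under which the median log2 change of all loci was -0.58 in prostrata and -0.75 in rosea, 16 rose and 10 fell in prostrata and 12 rose and 29 fell in rosea, so changes are given relative to the TMM scale. Of the 103, 11 rose in both species and 1 fell in both, or 10.7% and 0.971%, where 9.55% and 4.53% of all loci did. TT7 rose by 1.86 ± 0.20 in prostrata and 1.76 ± 0.21 in rosea. CYP716A1 rose by 1.74 ± 0.20 in rosea, from 318, 335 and 359 CPM to 712 to 1402 CPM, and by 0.94 ± 0.20 in prostrata, a difference that was not called. AT5G08250, which fell in both, changed by -1.69 ± 0.28 and -1.56 ± 0.24.

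The age change itself was called different between the species for 30 loci, 29.1% of those tested, where 10.9% of all loci were. It was more positive in rosea for 10 and more negative for 20, against 4.51% and 6.38% of all loci. Of these 20, 11 belonged to family 71 and 4 to family 81. In family 71, 13 of 17 tested members rose in prostrata and 0 fell, while in rosea 1 rose and 3 fell. The median change of the 17 was 1.35 in prostrata and -0.04 in rosea, beside -0.03 and -0.07 for all tested loci. With library totals 6 of the 17 rose in prostrata and 6 fell in rosea, and 11 were again called in the difference, all of them negative.

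CYP71A26 is an example. In prostrata it stood at 15.0 ± 0.45 CPM at 1 mm and 16.4 ± 1.94 CPM in 7.5 mm leaf 10, then at 37.1 ± 5.54 CPM in the base and 46.2 ± 11.5 CPM in the tip at index 0.3 (mean ± SD, n = 3 each). Without the close pair the 2 other libraries there were at 33.2 and 43.4 CPM in the base and 45.8 and 58.0 CPM in the tip. In rosea it stood at 15.2 ± 1.02 CPM at 1 mm and 10.3 ± 1.55 CPM in the tip at index 0.8. The libraries of the species overlapped at 1 mm (log2 difference 0.01), and the difference was called at the 4 stages of indices 0.3 and 0.8 (-1.74 to -2.38) but not at 5 mm or 7.5 mm (-0.54 to -0.77). The change was 1.57 ± 0.14 in prostrata and -0.59 ± 0.13 in rosea, a difference of -2.16 ± 0.19 (adjusted p = 1.01e-10). CYP71A19 gave a difference of -2.08 ± 0.20 and CYP71A12, which acts in defence compounds made from tryptophan in Arabidopsis, one of -2.40 ± 0.31. The largest was that of CYP71B13 (-3.46 ± 0.41), a low locus at 0.15, 0.57 and 0.76 CPM in 1 mm prostrata leaves and 4.11, 4.12 and 4.86 CPM in those of rosea, named after its values were seen. CYP71B10, likewise named afterwards, was the exception and rose in both species (1.22 ± 0.30 and 2.19 ± 0.29). The 5 members with a mean of at least 5 CPM in prostrata had a median Spearman correlation of 0.82 over 10 pairs across its 24 libraries. The 3 members that reached this mean in rosea had one of -0.066 over 3 pairs. Over all pairs of 1 family the median was 0.772 in prostrata and 0.476 in rosea. Family 86 had 0.864 in prostrata, so the likeness there is not particular to CYP71. Whether the prostrata loci share the reads of fewer genes was not tested.

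**Figure D4:**
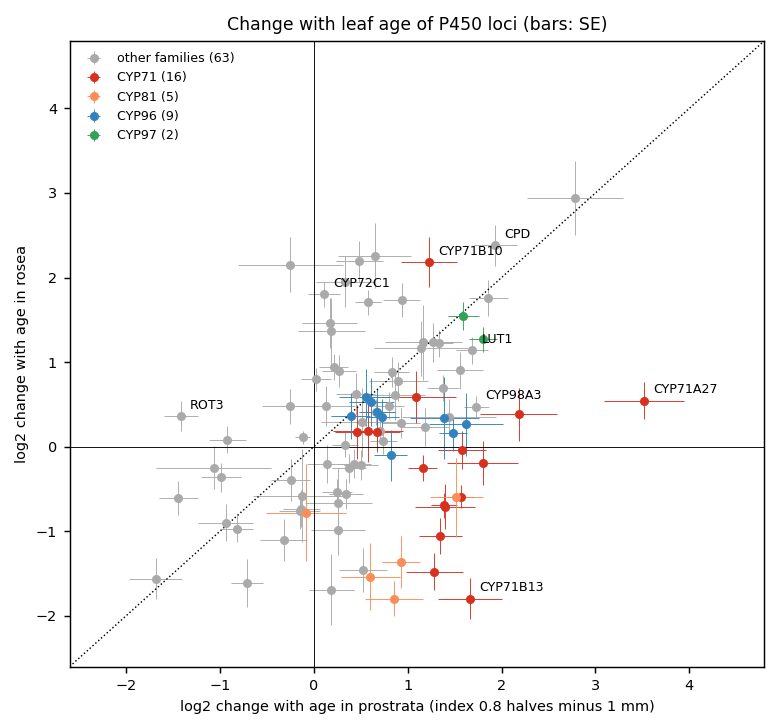
Log2 change with age (mean of base and tip at index 0.8 minus 1 mm leaves) in prostrata (x axis) and rosea (y axis) of 95 tested P450 loci, with bars for SE and a dotted line of equal change; 8 loci with 3 or fewer counts in a group are left out. Of 16 CYP71 loci drawn, 15 lie below the line.

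In family 81 the age changes also differed between the species. Of 5 tested members 3 fell in rosea and 1 rose in prostrata, and 4 were called more negative in rosea. CYP81F2, which modifies indole glucosinolates in Arabidopsis, stood at 13.9, 17.2 and 18.3 CPM in 1 mm leaves of rosea and at 3.08 to 6.27 CPM in the 6 libraries at index 0.8 (-1.80 ± 0.21). In prostrata it stood at 0.92, 1.47 and 1.77 CPM and later at 1.56 to 3.53 CPM (0.85 ± 0.31). The difference was -2.65 ± 0.38 (adjusted p = 1.48e-06), so that the species, far apart at 1 mm (3.57 ± 0.30), differed by 0.15 ± 0.31 in the tips at index 0.8. PAD3, which ends camalexin synthesis in Arabidopsis, rose in prostrata (1.18 ± 0.26) and changed by 0.23 ± 0.22 in rosea, and the difference was under the fold limit (-0.95 ± 0.34). With library totals the rise was 0.64 and was not called, while the difference was -1.09 and was called. Without prostrata 1 mm replicate 1 the rise was under the fold limit (0.97).

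CYP98A3 also changed more in prostrata, from 53.9, 57.3 and 59.1 CPM at 1 mm to 149 to 258 CPM (1.73 ± 0.13), than in rosea, from 133, 143 and 161 CPM to 163 to 250.5 CPM (0.47 ± 0.12). The difference was -1.25 ± 0.17 (adjusted p = 1.05e-06). CYP73A5 of the same pathway behaved likewise (-1.15 ± 0.20). More positive in rosea were CYP72A7 (1.13 ± 0.19), CYP709B3 (1.71 ± 0.35), CYP72C1, CYP707A4 and ROT3. Of 6 electron donors tested (2 P450 reductases and 4 cytochrome b5 loci), 0 were called between the species over the stages or at 1 mm. In the tips at index 0.8, 1 was called lower in rosea and 0 higher. The b5 loci CB5-C (-2.24 ± 0.44) and CB5-E (-1.26 ± 0.30) changed more negatively with age in rosea.

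**Figure D5:**
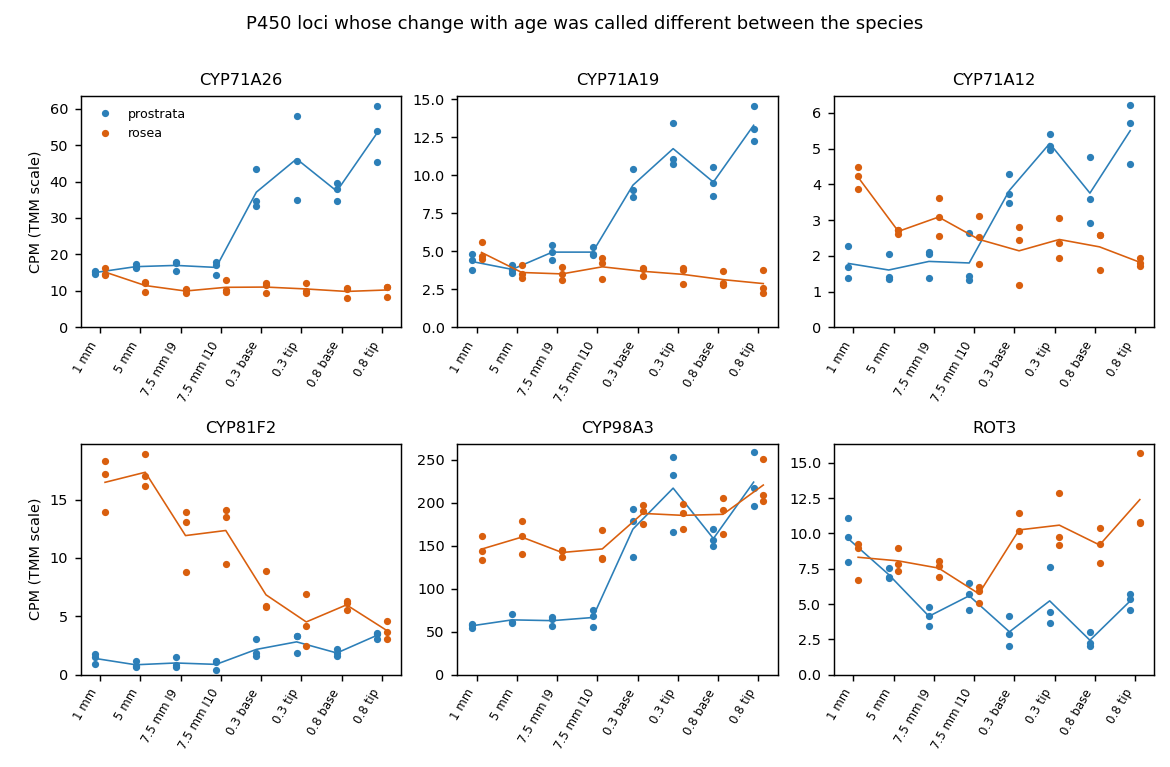
Levels in CPM (y axes start at 0) of 6 P450 loci whose age change differed between the species, by stage. Points are libraries, 3 per group, and lines join group means; CYP71A26 reached 60.8 CPM in a prostrata tip and stayed at or below 16.3 CPM in rosea.

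Tip and base differed little. Over indices 0.3 and 0.8, 1 P450 locus was called in prostrata, where 1.22% of all loci were (0.433% higher in the tip, 0.785% lower). In rosea 0 were called (0.582% of all loci, 0.149% higher and 0.433% lower), and 0 in the difference of the species (0.115%, 0.0677% and 0.0474%). These counts are those of edgeR's quasi-likelihood test. At an unadjusted p under 0.05 the numbers were 38, 21 and 19 of 103, and DESeq2 called 2, 0 and 1. Shares of all loci at these settings are not given here, so these counts do not set P450 loci apart. The called locus was CYP90D1. At index 0.8 in prostrata it stood at 1.98, 3.46 and 3.90 CPM in the base and at 8.73, 10.8 and 12.6 CPM in the tip, without overlap. At index 0.3 the base libraries were at 1.16, 3.78 and 5.53 CPM and the tip libraries at 4.54, 7.15 and 13.4 CPM, which overlap. The difference over the indices was 1.52 ± 0.33 (adjusted p = 0.00222), and it was 0.61 ± 0.28 in rosea. In a fit of these groups alone its adjusted p was 0.0541 and it was not called. Without the near-identical pair of 15 mm libraries 4 loci were called in prostrata, ROT3 (1.13) among them.

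The 34 loci that could not be tested include the cytokinin hydroxylase CYP735A2, CYP703A2 of the pollen wall, and CYP79B3, CYP79F2 and CYP83B1, which serve glucosinolate synthesis in Arabidopsis. Their low counts at Arabidopsis loci do not say whether Atriplex leaves lack such transcripts.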

How the data were processed

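The authors deposited 1 table of raw read counts per Arabidopsis locus; the TAIR10 build, CASAVA and DESeq2 are named in the submitters' processing notes. The aligner, counter and strand setting were not given in the sources used here. Of its 60 count columns, 48 were matched to the labels of 16 groups, and 12 that matched no label were not used. Leaf 9 columns carry other replicate numbers than the labels and were matched as a group. The hybrid and index 1.5 were not analysed here. Of 21976 loci, 5 with values out of their columns were dropped, none of them a P450 locus.

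Counts were scaled by TMM (factors 0.653 to 1.313), filtered with filterByExpr and modelled together, all 48 libraries at once with a mean for each group, in edgeR 4.0.16 under R 4.3.3 (32 residual degrees of freedom). All 14779 loci left were tested by quasi-likelihood, and p-values were adjusted over them. SE was derived from the log2 fold change and its F statistic (absolute change over the root of F). With 3 libraries a group and a biological coefficient of variation of 15.7%, intervals on counts cover counting error only. The procedure was tested on simulated data.

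Alternatives were library totals, RLE size factors, other filters on low counts, no minimum fold, DESeq2 1.42.0, fits of the compared groups alone, leaving out leaf 9 or each library in turn, a replicate block, leaving out the close pair of 15 mm libraries, and, chosen after seeing the data, a block by leaf index and the index 0.3 stages without that pair. Named loci are those of P450 role lists, up to 6 called loci per direction with the largest fold and at least 5 CPM in the higher group, and the 6 per direction with the largest fold among those called at every stage; others are said to be named after their values were seen. The loci, lists and rule were chosen with earlier results of these data known.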

Additional observations from a re-analysis of the deposited data

Results flagged for a closer look

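For 14 named P450 loci the change with age (index 0.8 minus 1 mm) differed between the species by a test of the difference itself, the interaction contrast of edgeR's quasi-likelihood fit with Benjamini-Hochberg adjustment over all tested loci. Values are the log2 change in rosea minus that in prostrata.

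The change was more positive in rosea for 7. It was 2.40 for CYP705A12 (adjusted p = 0.00765), a locus of low counts, 1.78 for ROT3 and 1.71 for CYP709B3 (adjusted p = 0.000354). Without prostrata 1 mm replicate 1 the value of CYP705A12 was 1.90 and was not called. The difference was 1.69 for CYP72C1, 1.61 for CYP707A4 and 1.13 for CYP72A7 (adjusted p = 2.7e-05), the last under the fold limit with library totals (0.98). For CYP88A3 it was 1.00 (adjusted p = 0.00333), at the fold limit, and under that limit in some of the alternative settings.

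The change was more negative in rosea for the other 7. It was -2.65 for CYP81F2, -2.40 for CYP71A12 and -2.29 for CYP81G1 (adjusted p = 1.24e-05). It was -2.16 for CYP71A26, -2.08 for CYP71A19 (adjusted p = 6.02e-10), -1.98 for AT1G66540 (adjusted p = 0.000103) and -1.25 for CYP98A3. Of the 14, CYP71A12 passed the test in opposite directions in the species, with a rise of 1.35 in prostrata and a change of -1.05 in rosea. With library totals the change in prostrata was 0.81 and was no longer called. The change in rosea was under the fold limit without rosea 1 mm replicate 3 (-0.9996) or without 13 mm bottom replicate 3 (-0.93).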

How the results depend on the processing

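Under each alternative but no minimum fold, P450 calls between species and with age, both directions together, stayed within 1.5 times the reported numbers. Without that minimum, 91 were called between the species over the stages, 63 with age in prostrata and 57 with age in rosea. These are given without shares of all loci. By direction the calls with age were less steady. With library totals more P450 loci fell than rose in rosea. No named locus reversed. Leaving out 1 library at a time gave 50 to 53 between the species over the stages, 50 to 53 at 1 mm, 51 to 56 in tips at index 0.8, 35 to 40 with age in prostrata, 32 to 37 in rosea and 26 to 33 in the age difference. Library totals in place of TMM scaling moved the median of all loci by -0.58 with age in prostrata, by -0.75 in rosea and by -0.17 between the species, where 27 P450 loci were then higher and 26 lower.

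Tip against base rests on few calls, and the counts that follow are given without shares of all loci. In prostrata 23 loci were called without a minimum fold, 2 by DESeq2, 0 in the fit of these groups alone and 4 without replicate 1 of the 15 mm bottom and top. In rosea 3 were called without a minimum fold and 1 with library totals. In the difference 1 was called by DESeq2 and 1 without the 15 mm pair. Leaving out 1 library gave 1 to 4 in prostrata (4 without 15 mm top replicate 1), 0 to 1 in rosea (1 without 11 mm top replicate 3) and 0 to 1 in the difference (1 without 15 mm bottom replicate 3). The cause was not tested.

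Replicate numbers were not used to pair the samples in the main fit, which treats all libraries as independent. Deviations of same-numbered libraries correlated over 0.1 in 5 of 12 pairs of leaf parts of 1 index (highest 0.40). The same held in 26 of 114 pairs of other stages of 1 species and in 2 of 21 pairs of species at the same stage. Among the other pairs it held in 6 of 126. With the replicate block, without leaf 9, 55 loci were called between the species, 38 with age in prostrata, 34 in rosea and 31 in the difference. With a block by leaf index, 1, 0 and 0 were called for tip against base in prostrata, rosea and their difference. Loci with a few counts in 1 species limit the folds given for them.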

Other observations

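Some P450 loci followed each other closely across the 24 libraries of each species. Among 36 loci with a mean of at least 5 CPM in both species, CYP97A3 and CYP97B3 had a Spearman correlation of 0.97 in prostrata and 0.962 in rosea. CYP86A4 and CYP86A7, both of the cutin subfamily, had 0.939 and 0.923. TT7 and CYP76G1, of different families, had 0.916 and 0.962. The points share libraries, depth and stage, so these values only describe the profiles.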
